A study of Mus musculus with 2 samples.

Results

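The genes described here are 10 interferon-induced genes of the mouse from 3 gene families. The genes chosen from each family lie in 1 genomic cluster, while relatives such as Ifitm7 and Slfnl1 lie on other chromosomes. The 10 are Slfn1, Slfn2, Slfn4 and Slfn5 of the Schlafen family, Ifi202b, Ifi204 and Ifi205 of the Ifi200 family, and Ifitm2, Ifitm3 and Ifitm6 of the interferon-induced transmembrane family. They are 10 of the 16416 genes in the deposited table and were taken from it by name, after results of these data had shown lower levels of such genes in 1 of the 2 libraries. The differences between the libraries are therefore a description of the genes chosen, and carry no test. Tumors had been engrafted into wild-type (WT) mice and into mice whose heat shock factor 1 (HSF1) carries the S303/7A mutations, which put alanine in place of serine and are stated for the host and not for the engrafted cells. Per the series' design text, tumors of 4 mice were pooled, and each genotype gave 1 library, so library and genotype cannot be told apart. Live cells were sorted by CD45, mixed at 5 CD45+ cells to 1 CD45- cell and sequenced from the 3' end in droplets, and the tumor line, the strain and the age of the mice are not given in the labels.

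Schlafen genes encode proteins with a divergent AAA domain, and the short mouse members, Slfn1 and Slfn2, are known for their part in T cell quiescence. Ifi200 genes encode proteins of the HIN domain family, of which Aim2 is the best known sensor of cytosolic DNA. Ifitm genes encode small membrane proteins, and Ifitm3 hinders the entry of enveloped viruses at endosomes. Genes of this kind are induced through interferon receptors and JAK kinases, by way of promoter elements known as the interferon-stimulated response element (ISRE) and the gamma-activated site (GAS).

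The 4 Schlafen genes lay within 238.9 kb of chromosome 11 (82951349 to 83190216), the 3 Ifi200 genes within 284.5 kb of chromosome 1 (173747293 to 174031810), and the 3 Ifitm genes within 63.1 kb of chromosome 7 (140954837 to 141017924), on GRCm38 in GENCODE release M21. RefSeq's promoter windows on GRCm38.p6, which run from 250 bases before to 50 bases after a gene's start, were found for 9 of the 10 genes, and not for Ifi204. They were searched for an ISRE-type motif, the letters GAAA and again GAAA with any 2 bases between them, on both strands, and for a GAS-type motif, TTCNNNGAA, which is its own reverse complement. The ISRE-type motif was matched in 4 of the 9 windows (Slfn5, Ifi205, Ifitm2 and Ifitm3), and among all 32851 windows it was matched in 3.44%. The GAS-type motif was matched in 3 of the 9 windows (Ifi202b, Ifitm3 and Ifitm6), and in 8.30% of all windows. Ifitm3 held both, as did 0.454% of all windows, and its GAS-type match overlapped the second of its 2 ISRE-type matches. Neither motif was matched in the windows of Slfn1, Slfn2 and Slfn4. The 6 windows with a match are shown because they hold the letters of the elements that interferon signalling is known to use, 5' to 3' on the gene's own strand, with the matches in capitals. They are Slfn5 at chr11:82951852-82952151 (plus strand), Ifi202b at chr1:173982795-173983094 (minus strand), Ifi205 at chr1:174031706-174032005 (minus strand), Ifitm2 at chr7:140955912-140956211 (minus strand), Ifitm3 at chr7:141010695-141010994 (minus strand) and Ifitm6 at chr7:141016843-141017142 (minus strand). A match describes letters and shows no binding.
Slfn5: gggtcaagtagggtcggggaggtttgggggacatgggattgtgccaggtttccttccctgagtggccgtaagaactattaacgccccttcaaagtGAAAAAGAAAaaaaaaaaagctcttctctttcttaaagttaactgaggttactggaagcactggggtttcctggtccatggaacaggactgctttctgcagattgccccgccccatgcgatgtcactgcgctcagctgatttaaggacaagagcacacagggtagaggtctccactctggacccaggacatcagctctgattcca
Ifi202b: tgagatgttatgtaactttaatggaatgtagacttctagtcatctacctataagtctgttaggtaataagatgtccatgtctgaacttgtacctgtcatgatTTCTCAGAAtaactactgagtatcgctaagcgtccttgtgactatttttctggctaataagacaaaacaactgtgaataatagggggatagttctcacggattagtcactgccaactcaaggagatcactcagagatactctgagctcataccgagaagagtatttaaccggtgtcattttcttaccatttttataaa
Ifi205: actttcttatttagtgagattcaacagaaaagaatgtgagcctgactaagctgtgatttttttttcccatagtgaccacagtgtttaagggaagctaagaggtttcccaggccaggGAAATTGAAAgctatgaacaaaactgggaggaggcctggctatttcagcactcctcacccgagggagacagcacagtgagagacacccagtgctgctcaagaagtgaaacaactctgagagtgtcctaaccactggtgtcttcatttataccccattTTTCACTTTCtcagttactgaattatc
Ifitm2: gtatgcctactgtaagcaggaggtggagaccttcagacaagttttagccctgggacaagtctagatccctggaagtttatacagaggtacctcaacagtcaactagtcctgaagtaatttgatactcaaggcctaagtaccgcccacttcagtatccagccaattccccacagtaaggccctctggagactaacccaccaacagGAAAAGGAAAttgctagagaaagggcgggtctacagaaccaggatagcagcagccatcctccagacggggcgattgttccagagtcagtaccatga
Ifitm3: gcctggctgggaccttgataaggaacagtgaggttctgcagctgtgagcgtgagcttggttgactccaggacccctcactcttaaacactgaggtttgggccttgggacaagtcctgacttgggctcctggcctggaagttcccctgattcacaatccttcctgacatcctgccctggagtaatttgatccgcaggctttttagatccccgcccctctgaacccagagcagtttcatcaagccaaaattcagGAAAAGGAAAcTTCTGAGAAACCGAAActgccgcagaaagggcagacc
Ifitm6: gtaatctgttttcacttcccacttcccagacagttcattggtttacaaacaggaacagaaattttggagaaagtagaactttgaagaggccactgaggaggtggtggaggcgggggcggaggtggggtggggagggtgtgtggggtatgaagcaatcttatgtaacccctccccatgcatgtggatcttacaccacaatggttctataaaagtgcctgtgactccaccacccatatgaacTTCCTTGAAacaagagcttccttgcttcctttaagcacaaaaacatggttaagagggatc

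The WT library held 6654 cells with a median of 7698 UMIs (unique molecular identifiers, each marking 1 captured RNA molecule) and the S303/7A library 4802 cells with a median of 13028. The depth gap was uneven, where the median cell of S303/7A had 2.61 times the UMIs of that of WT in macrophages (MF), 2.10 in monocytes (Mo) and 1.10 in tumor cells. Levels are therefore given as CP10K, the mean over the cells of a class or cluster of UMIs per 10000 UMIs of the cell. A lower level is a smaller share of a cell's UMIs and need not be fewer UMIs per cell. Differences (S303/7A over WT) are log2 ratios after adding 0.1 CP10K to both levels, which shrinks those of low genes, and ratios of summed UMIs with an exact 95% interval that covers counting error only. Classes and the 22 clusters are the authors', and 8 classes with at least 50 cells in each library and 20 clusters with at least 20 were compared. The Mo, MF and NK classes carried their markers. The 5 monocyte markers (Ly6c2, Plac8, Chil3, Ccr2 and Vcan) summed in Mo to 210 CP10K (WT) and 118 (S303/7A), against 0.992 and 0.590 in Tumor. 7 macrophage markers (C1qa, C1qb, C1qc, Adgre1, Ms4a7, Csf1r and Apoe) summed to 139 and 269 in MF, and 4 NK markers to 81.9 and 51.9 in NK. The class deposited as Gr joined C18, where 5 neutrophil markers summed to 445 and 496, and C22, where 3 mast cell markers summed to 519 and 380. In Stromal, 4 stromal markers summed to 0.85 and 1.34 CP10K, under the 2.28 and 2.28 of Tumor. Of these, Pecam1 and Cdh5 stood higher in Stromal than in Tumor, and Col1a1 and Pdgfrb lower. The 3 tumor markers (Spp1, Fosl1 and Hmga2) summed to 37.5 and 52.1 in Stromal and to 63.7 and 94.5 in Tumor, so Stromal also held tumor marker RNA. The libraries shared 48 cell barcodes.

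Most of the 10 genes had their highest levels in the monocyte cluster C07 and in the neutrophil cluster C18. Among the 21 clusters with at least 20 cells in a library, C07 ranked first in both libraries for Slfn5, Ifi202b, Ifi204, Ifi205 and Ifitm3, and C18 for Slfn1, Slfn2, Slfn4 and Ifitm2. Ifitm6 was highest in C18 in WT, at 4.72 CP10K against 4.67 in C07, and highest in C07 in S303/7A, at 3.54 against 1.93. C18 held 39 and 41 cells with medians of 1125 and 1280 UMIs, so its levels rest on few UMIs. Ifi205 had another order from the rest, with the DC cluster C20 next to C07 in both libraries, at 1.69 CP10K (WT) and 2.67 (S303/7A), and 1.69 and 1.08 in the DC cluster C16. In C20 and C16 of WT, the levels of Ifi205 were alike. The lowest levels lay in tumor clusters for Slfn2 and Ifi204 in both libraries, and in lymphocyte clusters for Ifitm2 and Ifitm3. Ifitm3 stood at 24.7 CP10K (WT) and 15.9 (S303/7A) in the tumor cluster C01, but at 3.97 and 1.74 in the NK cluster C10.

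**Figure D1:**
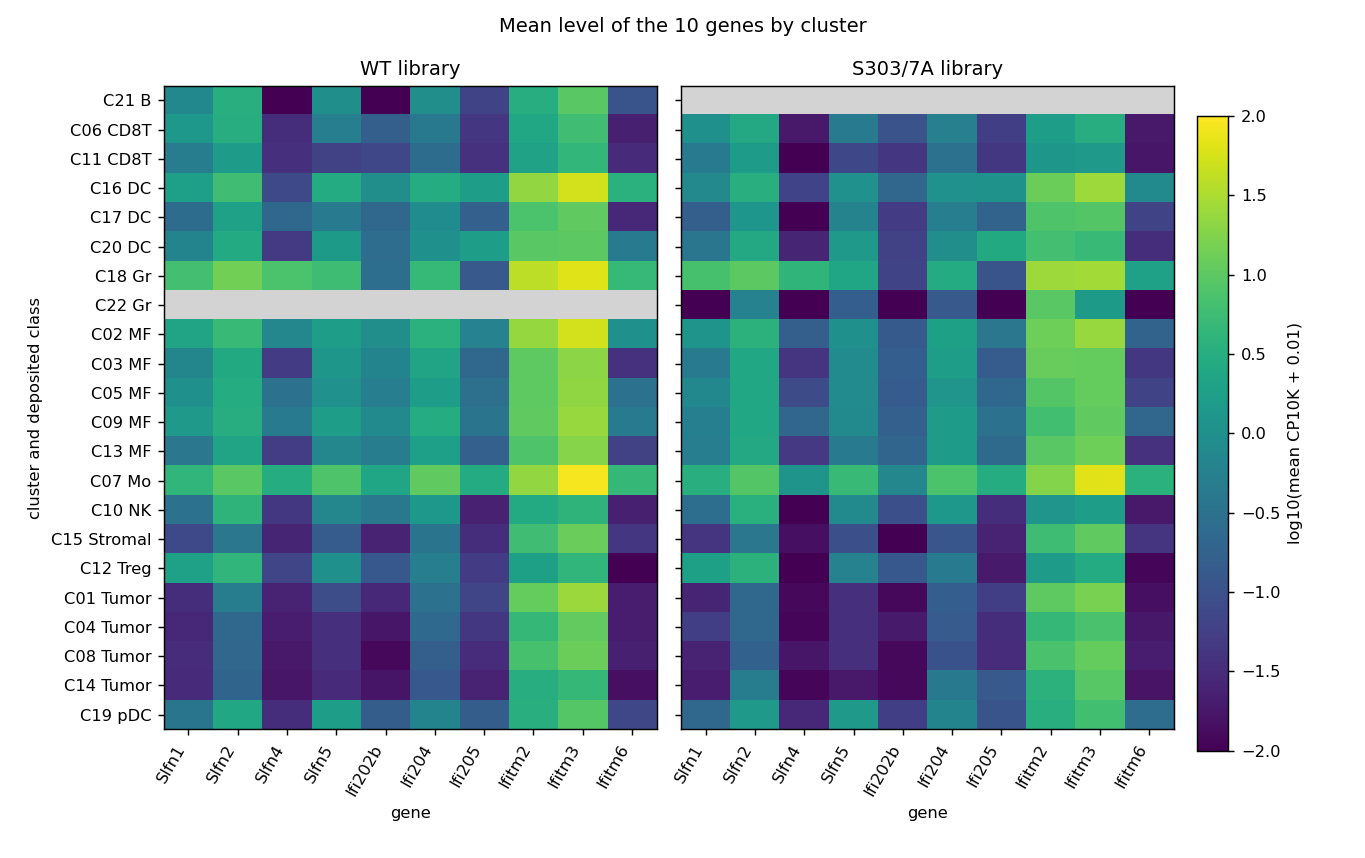
Mean level of each gene (columns) in each cluster (rows, with the deposited class) in the WT and the S303/7A library, as log10 of mean CP10K plus 0.01; grey marks clusters with fewer than 20 cells in that library. The rows of C07 (Mo) and C18 (neutrophils) are bright across most genes in both panels.

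All 4 Schlafen genes were lower in S303/7A in monocytes, macrophages and DC, where Slfn4 rested on 11 and 10 UMIs. Slfn4, which is known as a gene of activated myeloid cells, had the largest difference of the 4 in monocytes. In monocytes Slfn4 stood at 2.97 CP10K (WT) and 1.18 (S303/7A), a log2 ratio of -1.26 and a UMI ratio of 0.406 (0.352 to 0.468). In macrophages it stood at 0.392 and 0.0902, a UMI ratio of 0.235 (0.196 to 0.281). Slfn4 was not measured, that is, it stayed under 0.1 CP10K in both libraries, in the NK, CD8T, Treg, Tumor and Stromal classes. Slfn5, a long nuclear Schlafen protein, stood at 7.84 and 5.12 CP10K in monocytes, 1.43 and 0.824 in macrophages and 1.76 and 0.957 in DC, with UMI ratios from 0.561 in DC to 0.628 in macrophages. In Treg Slfn5 was also lower, at 1.01 and 0.589 (UMI ratio 0.478, 0.328 to 0.693). In NK and CD8T its intervals held 1, at 1.02 (0.749 to 1.40) and 1.22 (0.933 to 1.59).

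Slfn1 stood at 1.37 and 0.707 CP10K in macrophages and 4.22 and 3.37 in monocytes, with UMI ratios of 0.607 (0.567 to 0.651) and 0.795 (0.725 to 0.872). In T cells Slfn1 stood at 1.94 and 1.90 CP10K in Treg (UMI ratio 0.836, 0.659 to 1.06), while Slfn2 in Treg was lower, at 4.21 and 3.67 (0.809, 0.688 to 0.953). In CD8T Slfn2 stood at 2.46 and 2.33 CP10K (UMI ratio 0.9998, 0.918 to 1.09). In macrophages Slfn2 stood at 3.59 and 2.81 CP10K (UMI ratio 0.826, 0.795 to 0.858), the smallest difference of the 10 genes in that class.

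Ifi202b, a HIN protein without the pyrin domain that most of its relatives carry, had the largest log2 differences of the Ifi200 genes in macrophages, monocytes, DC and NK. It stood at 2.31 CP10K (WT) and 0.693 (S303/7A) in monocytes, 0.735 and 0.146 in macrophages, 0.567 and 0.121 in DC, and 0.388 and 0.0857 in NK. The UMI ratios were 0.286 (0.240 to 0.340) in monocytes, 0.225 (0.199 to 0.253) in macrophages, 0.197 (0.129 to 0.295) in DC and 0.198 (0.0806 to 0.423) in NK, the last on 46 and 8 UMIs. In Treg the level was the same to within counting error, at 0.117 and 0.117, on 7 and 12 UMIs. The share of monocytes with at least 1 Ifi202b UMI was 64.0% (exact 95% interval 59.7 to 68.1) in the WT library and 25.5% (20.4 to 31.1) in S303/7A, although the S303/7A cells were the deeper ones, with medians of 9020 against 4292 UMIs. In tumor cells, where Ifi202b was not measured, it was 1.76% (1.26 to 2.38) and 1.07% (0.514 to 1.96) at medians of 25531 and 28128 UMIs. With each monocyte thinned to 1000 UMIs the shares were 22.0% (18.5 to 25.8) and 5.62% (3.18 to 9.10).

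Ifi204, whose protein takes part in sensing DNA, stood at 10.4 and 7.26 CP10K in monocytes, 2.71 and 1.61 in macrophages and 1.88 and 0.837 in DC. The UMI ratios were 0.708 (0.666 to 0.753), 0.643 (0.613 to 0.674) and 0.484 (0.412 to 0.569). In NK the levels were 1.34 and 1.35 CP10K (UMI ratio 1.10, 0.879 to 1.37). In CD8T Ifi204 was higher in S303/7A, at 0.338 and 0.470 CP10K (UMI ratio 1.42, 1.15 to 1.77). Ifi205 differed least of the Ifi200 genes, at 2.91 and 3.02 CP10K in monocytes (UMI ratio 1.08, 0.975 to 1.20), 1.07 and 0.990 in DC (0.960, 0.813 to 1.14) and 0.378 and 0.242 in macrophages (0.671, 0.593 to 0.760).

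Ifitm3 was lower in S303/7A in each of the 8 classes, with intervals of the UMI ratio under 1 in 7 and holding 1 in Stromal. It stood at 87.8 CP10K (WT) and 66.1 (S303/7A) in monocytes, 32.8 and 14.6 in macrophages, 30.5 and 16.6 in DC, and 15.98 and 12.3 in tumor cells. In lymphocytes it stood at 3.97 and 1.74 in NK, 5.22 and 2.60 in CD8T and 4.34 and 2.92 in Treg. The UMI ratio was 0.471 (0.464 to 0.478) in macrophages, 0.415 (0.354 to 0.484) in NK and 0.430 (0.402 to 0.460) in CD8T. Every monocyte of both libraries held an Ifitm3 UMI, while with macrophages thinned to 1000 UMIs 78.4% (76.4 to 80.2) and 55.0% (52.8 to 57.1) did.

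Ifitm2, a close relative of Ifitm3, stood at 22.8 and 18.1 CP10K in monocytes, 14.8 and 10.4 in macrophages and 2.83 and 1.20 in NK (UMI ratio 0.370, 0.308 to 0.441). In tumor cells its levels lay close together, at 7.41 and 7.53 (UMI ratio 1.08, 1.06 to 1.10). Ifitm6, known from myeloid cells, stood at 1.75 and 0.428 CP10K in DC, 0.508 and 0.0917 in macrophages and 4.67 and 3.54 in monocytes. The UMI ratios of Ifitm6 were 0.236 (0.191 to 0.290), 0.180 (0.152 to 0.212) and 0.598 (0.544 to 0.657). It was not measured in lymphocyte, tumor and stromal cells.

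**Figure D2:**
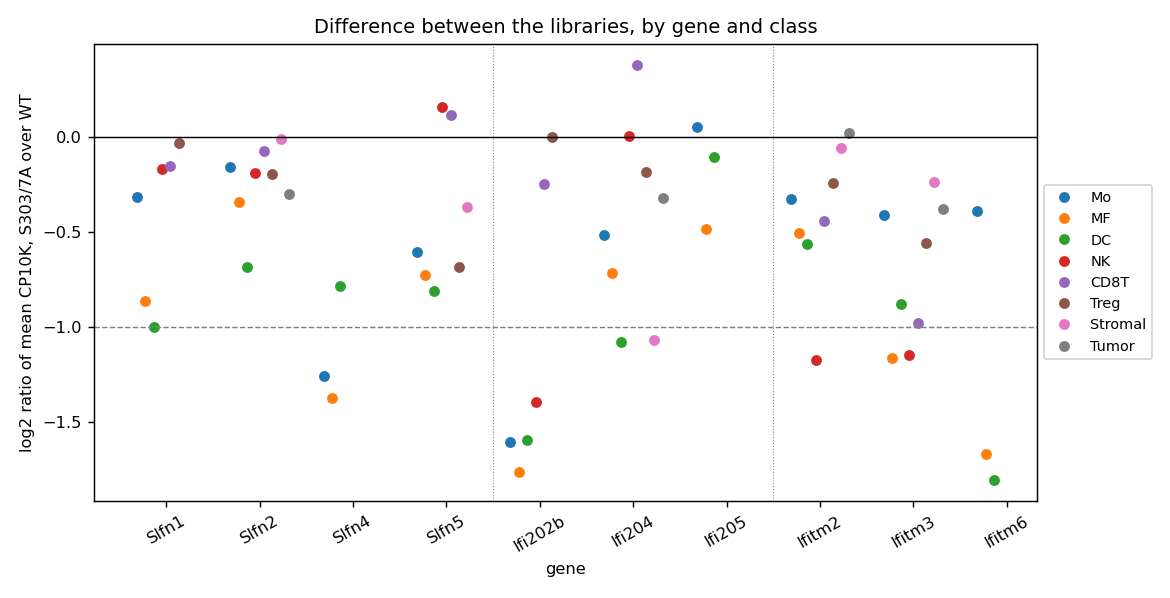
Log2 ratio of mean CP10K, S303/7A over WT (vertical axis), for each gene (horizontal axis) in each class where it reached 0.1 CP10K in 1 library; each point is 1 class, the solid line is no difference, the dashed line is 2-fold lower, and dotted lines part the families. Ifi202b lies between -1.39 and -1.76 in Mo, MF, DC and NK, and Ifi204 in CD8T is the highest point, at 0.38.

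Over the measured genes of each class, 10 of 10 were lower in S303/7A in macrophages, where 45.4% of all 7327 measured genes were lower, and 10 of 10 in DC, against 49.7%. In monocytes 9 of 10 were lower (43.1% of all measured genes), in NK 5 of 7 (54.4%), in CD8T 5 of 7 (54.5%), in Treg 6 of 7 (56.0%), in Tumor 3 of 4 (57.3%) and in Stromal 5 of 5 (55.7%). At least 2-fold lower were 4 of 10 in macrophages (Slfn4, Ifi202b, Ifitm3 and Ifitm6; 0.614% of all measured genes), 2 of 10 in monocytes (Slfn4 and Ifi202b; 0.753%), and 3 of 10 in DC (Ifi202b, Ifi204 and Ifitm6; 0.863%). In NK 3 of 7 were (Ifi202b, Ifitm2 and Ifitm3; 0.506%), in Stromal 1 of 5 (Ifi204; 8.17%), and none of 7 in CD8T (0.356%), 7 in Treg (2.4%) and 4 in Tumor (0.162%). The median log2 ratio of the 10 was -0.80 in macrophages, -0.84 in DC and -0.40 in monocytes, beside medians over all measured genes within 0.06 of 0. Since the genes were chosen on this contrast, and a gene that reached the minimum only in the library where it was higher had to differ, nothing is read from these counts. Just past 2-fold lay Ifitm3 in NK (-1.15), Ifi204 in DC (-1.08) and Ifi204 in Stromal (-1.07), and just short of it Slfn1 in DC (-0.997), Ifitm3 in CD8T (-0.98) and Ifitm3 in DC (-0.88). In all, 53 of 60 values of a gene in a class were lower, while without scaling to depth, as UMIs per cell, 23 of 60 were. The share of all measured genes lower as UMIs per cell was not computed. The median S303/7A cell was the deeper one in each of the 8 classes, so nothing is read from the unscaled count. In UMIs per cell, Ifitm3 stood at 18.1 in WT and 20.2 in S303/7A in macrophages and at 38.1 and 61.9 in monocytes, so its lower share came with more UMIs, whereas Ifi202b stood at 0.386 and 0.205 and at 1.04 and 0.663. With cells thinned to 1000 UMIs, at least 3 of the 10 genes had a UMI in 42.4% of WT and 21.7% of S303/7A macrophages, and the median monocyte held UMIs of 5 and 4 of them.

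Sums of monocyte markers moved with the 10 genes. In macrophages the 5 markers summed to 50.6 CP10K (WT) and 12.5 (S303/7A), with 5 of 5 lower, to 29.2 and 8.69 in DC, with 3 of 5 lower, and to 210 and 118 in monocytes, with 4 of 5 lower. Ly6c2 and Plac8 made up most of each sum, at 12.6 and 2.18 and at 34.4 and 7.53 in macrophages. Ccr2 stood at 3.16 and 2.55 in macrophages and was higher in monocytes (4.589 and 5.345) and DC (0.612 and 0.838). Ly6c2 was also lower in NK (14.57 and 7.675), CD8T (11.1 and 6.97) and Treg (7.86 and 3.19), so it does not mark monocytes alone. The 7 macrophage markers moved the other way, summing to 139 and 269 in macrophages, to 44.0 and 86.2 in monocytes (6 of 7 higher) and to 10.99 and 27.0 in DC (6 of 7 higher), and their part in the differences was not tested. After thinning to 1000 UMIs, a UMI of the 5 monocyte markers was found in 70.6% of WT and 38.2% of S303/7A macrophages. Among macrophages with one, 10 of 10 genes were lower (43.6% of all measured genes) and 3 at least 2-fold (0.528%), with a median log2 ratio of -0.69. Among the 547 and 1279 macrophages without one, 4 of 8 measured genes were lower (48.5%) and 1 at least 2-fold (0.269%), with a median of -0.01. There Ifi202b stood at 0.471 and 0.144 CP10K (log2 ratio -1.23), Ifitm3 at 13.9 and 10.6 (-0.38) and Slfn5 at 0.964 and 0.717 (-0.38), while Ifitm2 was higher, at 8.76 and 10.3 (0.23), and so was Slfn1, at 0.420 and 0.484 (0.17). In DC the median was -0.67 with a marker UMI and -0.11 without, where 5 of 8 measured genes were lower (46.3%). Interferon-induced genes outside the 3 families were lower in 28 of 33 among the macrophages without a marker UMI, with a median of -0.18. The part of cells with monocyte marker RNA in the differences was otherwise not tested. The split was chosen after the monocyte markers had been seen to differ, and it may not part monocyte-like cells from the rest.

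**Figure D3:**
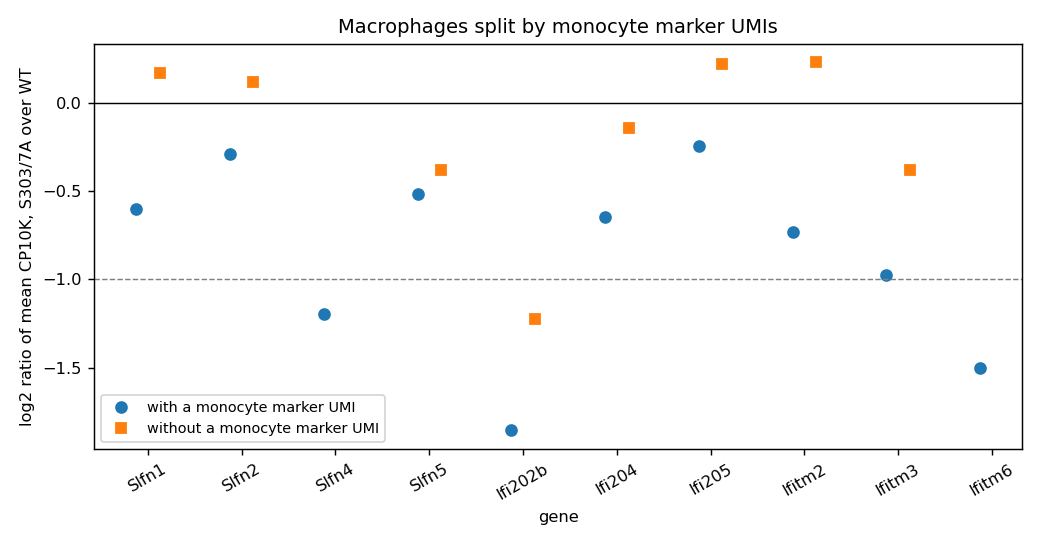
Log2 ratio of mean CP10K, S303/7A over WT (vertical axis), of each gene reaching 0.1 CP10K in 1 library (horizontal axis), among macrophages with (circles) and without (squares) a UMI of 5 monocyte markers after thinning to 1000 UMIs. All 10 circles lie under 0, and of the 8 squares only that of Ifi202b lies under -1.

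In lymphocytes, most markers of macrophages moved the other way. The 7 macrophage markers summed to 5.05 CP10K (WT) and 12.0 (S303/7A) in NK (5 of 7 higher), 5.30 and 12.4 in CD8T (7 of 7), and 9.30 and 12.4 in Treg (5 of 7). Much of this was Apoe, at 1.08 and 5.20 in NK, 1.46 and 5.18 in CD8T, and 2.96 and 5.63 in Treg. Among NK cells with no UMI of C1qa, C1qb, C1qc, Csf1r, Adgre1, Ms4a7 and Cd14, which were 157 and 25 cells, Ifitm3 stood at 3.20 and 0.696 CP10K on 211 and 9 UMIs (UMI ratio 0.188, 0.0847 to 0.364). Ifitm2 stood at 2.20 and 0.230 on 163 and 2 UMIs (UMI ratio 0.0540, 0.00649 to 0.198), and Ifi202b had 18 and 0 UMIs, with an interval up to 1.002. Among CD8T cells without one, 210 and 36 cells, the UMI ratio of Ifitm3 was 0.370 (0.263 to 0.507), and that of Ifi204 2.15 (0.833 to 4.99), on 23 and 8 UMIs. These values rest on few cells of S303/7A, picked without thinning and without regard to Apoe, so the cells kept may hold Apoe UMIs. The median of the cells kept was 3082 and 4452 UMIs in NK and 5312 and 6044 in CD8T. The part of macrophage RNA in the lymphocyte values was otherwise not tested.

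In the DC cluster C16, 9 of 9 measured genes were lower (46.7% of all measured genes) and 6 at least 2-fold (1.61%), with a median log2 ratio of -1.19. In C16 Ifitm6 stood at 3.52 CP10K (WT) and 0.820 (S303/7A), Ifi204 at 2.95 and 1.05, Slfn5 at 2.93 and 1.06, and Ifitm3 at 52.5 and 25.8. Its monocyte markers summed to 47.8 and 13.8, and among its 22 and 65 cells without a UMI of them 8 of 8 measured genes were lower (50.7%), with a median of -0.75. Ifi205 was lower in C16 (UMI ratio 0.636, 0.507 to 0.7996) and higher in the DC cluster C20 (1.45, 1.10 to 1.94), a difference that was not tested. In the DC cluster C17 it stood at 0.159 and 0.181 CP10K on 12 and 16 UMIs, with an interval that held 1 (0.792, 0.351 to 1.83). In C20, with 27 WT and 35 S303/7A cells, the monocyte markers summed to 22.3 and 3.91 CP10K and the macrophage markers to 8.19 and 60.7. Their part in the value of Ifi205 was not tested. At the 3' end, most of the sequence of Ifi205 is also found in other genes, as given below, so its values are uncertain.

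Among macrophage clusters, C02, which held the most monocyte marker RNA of the class (99.0 and 30.2 CP10K), had 10 of 10 genes lower (48.6% of all measured genes) and 4 at least 2-fold (1.34%). Ifi202b stood there at 0.936 and 0.128 CP10K, a log2 ratio of -2.18. In C13, 4 of 8 measured genes were lower (45.3%). Ifi202b was among them, at 0.489 and 0.188 (UMI ratio 0.366, 0.267 to 0.504), and Ifitm2 was higher, at 7.94 and 9.57 (1.18, 1.11 to 1.26). In neutrophils (C18), Slfn4 stood at 7.32 and 4.13 CP10K (UMI ratio 0.448, 0.275 to 0.726), and Ifitm3 at 64.7 and 27.4 (0.400, 0.345 to 0.463). In C18 20.8% of all measured genes were at least 2-fold lower, so single values there weigh little.

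In the tumor cluster C14, Ifi204 and Ifitm3 were higher in S303/7A, while their UMI ratios lay under 1 in the other 3 tumor clusters. In C14, with 239 WT and 136 S303/7A cells at medians of 33231 and 32884 UMIs, the 5 measured genes were higher in S303/7A (45.4% of all measured genes were higher). Of the 5, Ifi205 reached the minimum of 0.1 CP10K only in S303/7A and so had to be higher, and nothing is read from the count. Ifitm3 stood there at 4.57 CP10K for WT against 9.22 (UMI ratio 1.96, 1.87 to 2.06), against 24.7 and 15.9 in C01 (0.659, 0.647 to 0.672), 10.98 and 7.01 in C04 (0.670, 0.647 to 0.694) and 12.5 and 11.3 in C08 (0.928, 0.903 to 0.953). Ifi204 stood at 0.117 and 0.402 in C14 (UMI ratio 3.41, 2.57 to 4.55), against ratios of 0.538 in C01, 0.543 in C04 and 0.649 in C08. Slfn2 stood at 0.184 and 0.464 (2.37, 1.86 to 3.02), against 0.451 (0.382 to 0.530) in C01 and ratios whose intervals held 1 in C04 and C08, at 0.940 (0.746 to 1.17) and 0.859 (0.686 to 1.07). Ifitm2 stood at 3.08 and 3.73 (1.31, 1.23 to 1.40), and it was also higher in C08 (1.06, 1.02 to 1.10), with 0.904 (0.881 to 0.927) in C01 and 1.01 (0.969 to 1.06) in C04. Ifi205 stood at 0.0155 and 0.119 (7.58, 3.88 to 16.2). C14 had the lowest level of Ifitm3 among the tumor clusters in WT, and C04 in S303/7A. Of other interferon-induced genes, 20 reached 0.1 CP10K in the WT library of C14, and 18 of these were higher in S303/7A, with Isg15 at 1.78 and 2.98 CP10K and Ifit1 at 0.927 and 2.06. A further 4 reached it only in S303/7A and so had to be higher. Of the 7 measured relatives from the 3 families, 4 likewise reached it only in S303/7A, and the other 3 were higher too, with Ifi203 at 0.146 and 0.532 and Mndal at 0.284 and 0.718. Macrophage markers summed to 1.01 and 3.36 CP10K in C14, 1.70 and 3.88 in C01, 1.68 and 4.40 in C04, and 1.39 and 2.97 in C08. Their part in the values of C14 was not tested. Without the cells of highest doublet score, the UMI ratio of Ifitm3 in C14 was 1.996 (1.90 to 2.10) and that of Ifi204 3.56 (2.67 to 4.79).

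**Figure D4:**
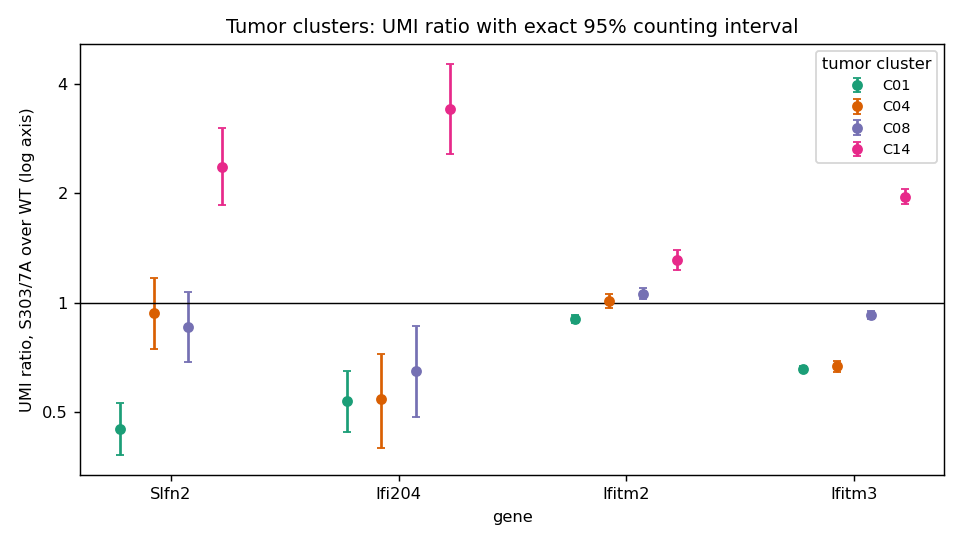
Ratio of summed UMIs, S303/7A over WT (vertical axis, log scale), of 4 genes (horizontal axis) in the 4 tumor clusters; points are ratios and bars exact 95% intervals that cover counting error only. The points of C14 lie above 1 for all 4 genes, from 1.31 for Ifitm2 to 3.41 for Ifi204.

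The other genes of the 3 families were mostly lower in myeloid cells and mixed in lymphocytes. In macrophages 13 of 13 measured relatives were lower in S303/7A (45.4% of all measured genes), with a median log2 ratio of -0.37, and none by 2-fold (0.614%). Ifi209 stood at 0.903 and 0.528 CP10K and Mndal at 2.46 and 1.63, while Aim2, the inflammasome's DNA sensor, stood at 0.315 and 0.285. In monocytes 10 of 13 were lower (43.1% of all measured genes), with Ifi214 at 0.740 and 0.279 (log2 ratio -1.15) and Ifi213 higher, at 1.69 and 2.15. Ifitm1, the neighbour of Ifitm2 and Ifitm3, was lower in NK, at 1.31 and 0.239 CP10K (UMI ratio 0.157, 0.110 to 0.220), and in CD8T, at 3.99 and 1.55 (0.347, 0.318 to 0.378). In monocytes Ifitm1 stood at 3.08 and 3.21 (UMI ratio 1.03, 0.931 to 1.15). Ifitm10 did not follow them in CD8T, with a log2 ratio of 0.30.

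Interferon-induced genes outside the 3 families were lower in 33 of 33 measured genes in macrophages (median log2 ratio -0.62), 33 of 33 in DC (-0.70), 30 of 33 in monocytes (-0.53) and 29 of 29 in tumor cells (-0.65). Of all measured genes, 45.4% were lower in macrophages, 49.7% in DC, 43.1% in monocytes and 57.3% in tumor cells. In NK 25 of 32 of the list were lower (-0.15), against 54.4% of all measured genes, and in CD8T 15 of 31 (0.02), against 54.5%. Isg15, a ubiquitin-like modifier, stood at 13.4 and 5.61 CP10K in macrophages and 75.9 and 38.5 in monocytes. It was the lowest of the list by log2 ratio in both classes. Next came Zbp1, a sensor of nucleic acids in the Z form, at 4.58 and 2.17, and Irf7, a transcription factor of the interferon response, at 7.67 and 3.89 in macrophages, and Rsad2 (viperin), at 11.04 and 6.19, and Zbp1, at 13.3 and 7.97, in monocytes. At the other end of the list were Lgals3bp, at 1.96 and 1.85, and Ddx58, which encodes the RNA sensor RIG-I, at 0.416 and 0.327 in macrophages, and Ifi44, at 0.534 and 0.637, and Lgals3bp, at 2.42 and 2.69, in monocytes. Among interferon signalling genes, 11 of 13 were lower in macrophages (45.4% of all measured genes) and 10 of 12 in monocytes (43.1%). Socs1, the feedback inhibitor of JAK kinases, stood at 0.798 and 0.333 CP10K in macrophages and 4.24 and 1.65 in monocytes. The transcription factor Irf1 stood at 1.08 and 0.537 in macrophages, and Stat2, a subunit of the factor that binds the ISRE, at 2.21 and 1.37 in monocytes. The receptor chains Ifnar2 and Ifngr1 were higher. Ifnar2 stood at 1.04 and 1.12 in macrophages and 0.915 and 1.34 in monocytes, and Ifngr1 at 1.73 and 1.82 and at 1.11 and 2.11. Among DNA sensing genes, 5 of 8 were lower in macrophages (45.4% of all measured genes) and 5 of 7 in monocytes (43.1%). Casp1, the inflammasome's protease, was the lowest in both, at 0.569 and 0.360 and at 1.82 and 1.11. Mb21d1, which encodes the DNA sensor cGAS, stood at 0.210 and 0.159 in macrophages. In monocytes Tbk1, a kinase of the pathway, stood at 0.260 and 0.235, and Tmem173, which encodes STING, at 0.804 and 0.760. The highest log2 ratios were those of Mavs (0.15) and the inflammasome adaptor Pycard (0.03) in macrophages, and of Irf3 (0.15) and Pycard (0.03) in monocytes.

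Across the 42 means of a cluster in a library, the genes most like each of the 10 in level were in part the family itself and in part other interferon or myeloid genes. Likeness was Pearson's r of log2 of mean CP10K plus 0.1 over 3668 genes, and the means share libraries and depth. Slfn5 was most like Irf7 (r = 0.95), then Slfn2 and Ifi204, and Ifi204 like Ifit2 (0.93), then Irf7 and Fcgr1. Slfn1 was most like Oas3 (0.93), then Slfn2 and Fgl2, and Slfn2 like Ncf4 (0.95), then Gpsm3 and Btg2. Slfn4 was most like Clec4e (0.97), with Acod1 and Clec4d next. Ifitm2 and Ifitm3 were most like each other (0.86), then Ifngr2 and Tgm2 for Ifitm2, and Tgm2 and Gbp2 for Ifitm3. Ifi205 was most like Naaa (0.89), then Ifi211 (0.89) and Tppp3, Ifi202b like Pnp (0.86), then Ms4a4c and Fam26f, and Ifitm6 like Gpr141 (0.89), then Trim30b and Ifit2. Within the 10, the likeness ran from 0.29 between Slfn2 and Ifitm2 to 0.93 between Slfn1 and Slfn2.

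Some of these genes share sequence with other genes, so reads may have been split or dropped in the authors' counting. Of the 31-base words in the last 500 bases of the transcript, where 3' end reads fall, 90.9% of Ifi205 were also found in another gene, as were 51.5% of Ifitm2, 28.3% of Ifitm3 and 18.5% of Ifi204. Over the whole transcript, Ifi205 and Ifi204 shared most with Ifi211, Ifitm2 with Gm45717 and Ifitm3 with Gm7676. The levels of these 4 genes, of Ifi205 above all, are uncertain to that extent. The share was 4.26% for Ifi202b, 8.72% for Slfn2, and 0 for Slfn1, Slfn4, Slfn5 and Ifitm6.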

How the data were processed

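Single cells of tumors were profiled with the 3' end kit of 10x Genomics (version 2 chemistry), per the labels' protocols, and the tools Cell Ranger and Seurat 3.0 and the builds mm10 and GRCm38 appear, with no roles, per the submitters' processing notes. The expression values deposited by the authors are natural log values of 1 plus UMIs per 100000 of a cell. The authors also deposited whole counts of UMIs and genes per cell, a mitochondrial percent, embedding coordinates (a score, not used here), clusters and classes; how these were made is not given in the sources used here. Undoing the log gave UMIs within 0.1 of a whole number for 99.94% of nonzero values, and the recovered number of genes matched in 11456 of 11456 cells. The levels, ratios and intervals were computed from these UMIs. The ratios and intervals were also run on counts simulated for MF and NK with counting error alone. That run cannot speak on variation between cells or libraries.

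With 1 library per genotype there was no test and no p-value, and cells were not taken as replicates. Intervals are exact (Clopper-Pearson, or conditional for UMI ratios) at 95% and cover counting error only. A gene was measured where it reached 0.1 CP10K in 1 library. The genes, the lists set beside them and the comparisons were chosen with earlier results of these data known. Named are the 10 genes in the classes, relatives measured in a class, the 3 lowest and 2 highest of each list in MF and Mo, and the 3 genes most like each of the 10; the values of lists and relatives in C14, and the choice among relatives named, were picked after they were seen. Of the genes this rule names, 1 is not reported here, and not all relatives are given. Thinning to 1000 UMIs left out 199 WT and 63 S303/7A cells. No doublet was removed from the main values: scanpy 1.11.5's Scrublet marked 0.842% and 0.0833% automatically, so the highest scores at the expected 5.32% and 3.84% (361 and 207 cells) were left out as an alternative. Promoters are RefSeq's. Python 3.11.15, numpy 2.4.6, scipy 1.17.1 and pandas 2.3.3 were used.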

Additional observations from a re-analysis of the deposited data

Results flagged for a closer look

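Some genes went one way in 1 class or cluster and the other way elsewhere, by intervals of the UMI ratio (S303/7A over WT) that lie on opposite sides of 1. The difference between classes or clusters itself was not tested. With 60 values by class and 150 by cluster, some intervals that end near 1 can arise from counting error. The intervals do not cover variation between cells or libraries. Ifi204 had a UMI ratio of 1.42 in CD8T and ratios under 1 in 5 other classes. Ifitm2 had a ratio of 1.08 in tumor cells and ratios under 1 in 5 other classes. Within the Tumor class, Ifi204 had a ratio of 3.41 and Ifitm3 a ratio of 1.96 in cluster C14, and both had ratios under 1 in C01, C04 and C08.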

How the results depend on the processing

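Ifi202b was lower in S303/7A in Mo, MF, DC and NK under every setting run for these classes, while the counts moved with some settings. Of genes lower (main counts: CD8T 5, DC 10, MF 10, Mo 9, NK 5, Stromal 5, Treg 6, Tumor 3), UMIs per cell, with a minimum of 0.1 UMIs per cell in place of 0.1 CP10K, left 2 of 6 in CD8T, 5 of 9 in DC, 3 of 10 in MF, 2 of 10 in Mo, 3 of 7 in NK, 3 of 5 in Stromal and 1 of 6 in Treg. For UMIs per cell the share of all measured genes was not computed, so these counts have no background beside them. Over the 60 values measured in CP10K, 30 changed direction as UMIs per cell, and 8 of 20 did without monocyte marker UMIs. Among the latter was Slfn4 in MF, which stayed under 0.1 CP10K in both libraries there. A minimum of 1 CP10K left 3 in CD8T, 6 of 6 in MF, 3 of 4 in NK, 2 of 2 in Stromal and 1 of 2 in Tumor, and no minimum gave 10 in Stromal and 8 of 10 in Tumor. Centring on the median of all genes left 3 in Stromal. Cells without monocyte marker UMIs, an alternative chosen after seeing the data, left 5 of 8 in DC and 4 of 8 in MF.

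Of genes at least 2-fold lower (main counts: CD8T 0, DC 3, MF 4, Mo 2, NK 3, Stromal 1, Treg 0, Tumor 0), a pseudocount of 1 CP10K left 1 in MF and 0 in DC, Mo, NK and Stromal, and one of 0.01 CP10K gave 5 in DC and 1 in CD8T. CD8T also had 1 with summed UMIs, thinned cells, the shallowest 10% left out, equal cluster weights or no macrophage marker UMIs, and Treg 2 with the last. UMIs per cell gave 0 in MF, Mo, NK and Stromal. A minimum of 1 CP10K gave 1 in MF and 0 in Stromal. Stromal had 0 after centring, with summed UMIs or without high doublet scores, and 3 when thinned. Cells without monocyte marker UMIs gave 1 in MF and 0 in DC. Of log2 ratios at least 2-fold lower, those that changed sign were Ifitm3 in MF as UMIs per cell (0.151), and, without monocyte marker UMIs, Ifi204 in DC (0.194) and Slfn4 in MF (0.022). The cause was not tested. Depth limits genes near 0.1 CP10K, and Treg, with medians of 2022 and 3702 UMIs. Stromal held the fewest cells of the compared classes, 163 and 138. No paired analysis was possible because each genotype has 1 library and the groups share only 1 replicate number.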
